A study of Mus musculus with 4 samples.

Results

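The samples described here are Treg RNA from CD4 T cells cultured with TGFb and IL6 together (4 arrays), set against Treg RNA from the same kind of culture with IL2 alone (3 arrays). They were chosen by the labels, which name the culture condition of each array and the dye that carried the Treg sample, and make up 7 of the 26 channels of 13 two-colour arrays. The source was CD4+ cells of mouse lymph node, stimulated over 4 days by plate-bound anti-CD3 (1 ug/ml). For 3 of these days the culture held either TGFb (4 ng/ml), IL6 (25 ng/ml) and IL2 (100 units/ml), or only the same amount of IL2. All groups therefore share anti-CD3 and IL2. The remaining conditions of the series were TGFb without IL6 (3 arrays) and IL6 without TGFb (3 arrays), and each array carried a T-effector sample of the same condition in its other dye. The series title gives the question as the conversion of T cells to regulatory cells by TGFb and its block by IL6.

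Regulatory T cells (Treg) are CD4 T cells that hold back immune responses and are defined by the transcription factor Foxp3. TGFb signals through receptor kinases to Smad factors and, in activated T cells, favours Foxp3 expression. IL6 signals through its receptor and the shared chain gp130 to STAT3, and together with TGFb it favours Th17 cells, which make IL-17A and IL-17F. The labels do not say by which marker Treg were told from T-effector cells, and they give no strain, sex or age of the mice. They also leave unsaid whether repeat arrays hold RNA of different cultures or animals. The p-values below therefore rest on array-to-array spread alone, and part or all of that spread may be technical.

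Foxp3 itself was read as a check of the sample labels. Its log2 signal was 9.06, 9.18, 8.87 and 8.94 in Treg with TGFb and IL6 and 8.57, 8.12 and 8.75 in Treg with IL2 alone. In the T-effector channels of the same arrays it was 6.35, 7.20, 6.81 and 7.07 with TGFb and IL6 and 6.07, 6.23 and 6.19 with IL2 alone. Every Treg channel lay above its T-effector partner, so the labelled samples differ in their defining gene. All 13 T cell identity genes tested were well above background on all 7 arrays.

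Treg RNA was in Cy3 on 2 and in Cy5 on 2 of the arrays with TGFb and IL6, and in Cy3 on 1 and in Cy5 on 2 of those with IL2 alone. The conditions met on 1 of 5 slides only, slide D, which held 1 array of each, so most of the comparison runs between slides. Arrays 2 and 4 with TGFb and IL6 both lay on slide B, with Treg RNA in Cy3 on array 2 and in Cy5 on array 4. The labels do not say whether these arrays hold the same RNA. Between 43.0% and 60.8% of probes were well above background in Treg channels with TGFb and IL6 and between 46.5% and 68.3% with IL2 alone. Correlations between arrays over all genes ran from 0.972 to 0.993 among the arrays with TGFb and IL6, from 0.965 to 0.971 among those with IL2 alone and from 0.941 to 0.967 between the conditions. IL2 array 1 stood apart from the other IL2 arrays in a transcript of the Y chromosome. Ddx3y, an RNA helicase gene of the Y chromosome, read 8.12, 8.01, 7.82 and 7.77 with TGFb and IL6 and 8.84, 6.37 and 6.41 with IL2 alone. Xist, the RNA of the inactive X chromosome, read 11.73, 11.80, 11.38 and 12.01 with TGFb and IL6 and 11.88, 12.02 and 12.77 with IL2 alone. Transcripts of both kinds were thus present in Treg samples of both conditions, and neither gene passed the test (limma, adjusted p = 0.58 for Ddx3y and 0.496 for Xist). In T-effector channels Ddx3y was not well above background on any array (5.93, 6.58, 5.93 and 6.42 with TGFb and IL6, 5.46, 5.88 and 6.09 with IL2 alone), so the sample types differed in this transcript. Its part in the differences between them given below was not tested.

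The joint effect was wide. Of 19900 genes tested, 1244 rose (6.25%) and 1471 fell (7.39%) in Treg with TGFb and IL6 relative to IL2 alone, which is 13.6% of genes in either direction (limma separate-channel fit, Benjamini-Hochberg adjusted p under 0.05). The median log2 difference was 0.75 among the genes that rose and -0.71 among those that fell, against -0.05 over all genes. A log2 difference of 1 or more was reached by 404 of the genes that rose and 409 of those that fell. The arrays of the conditions did not overlap for 2516 of the 2715 called genes, against 20.7% without overlap among all genes, the called ones included. The call and the overlap rest on the same arrays, so the overlap is no separate support for the calls. Without IL2 array 1 the count was 2490. In bulk RNA, fewer cells of a type and less RNA per cell cannot be told apart, and this holds for each gene below.

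**Figure D1:**
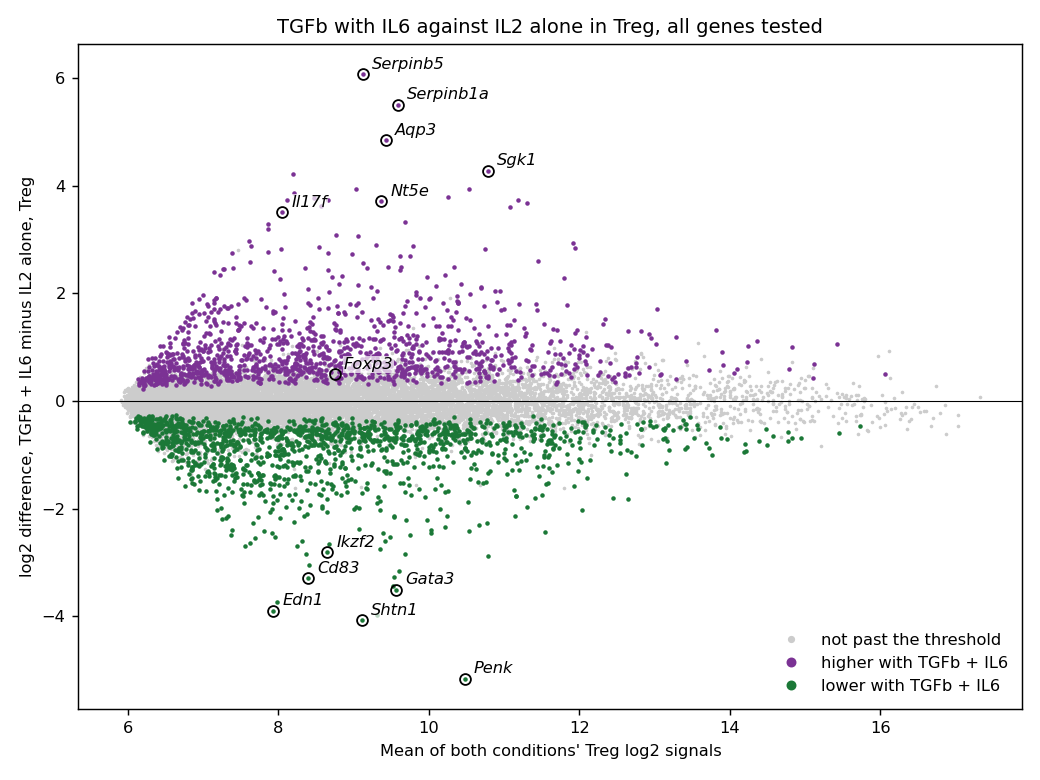
Log2 difference in Treg, TGFb with IL6 minus IL2 alone (vertical axis), against the mean log2 signal of both conditions (horizontal axis), 1 point per gene of 19900 tested. The 1244 genes that rose and the 1471 that fell are coloured, and circles mark genes described in the text, from Serpinb5 at 6.07 to Penk at -5.16, with Foxp3 at 0.49 not past the threshold.

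Genes of the Th17 programme rose more often than they fell. Of 17 tested members, 9 rose and 2 fell, with a median log2 difference of 0.50 (13.6% of all genes called, median -0.05). The 9 became 7 without TGFb with IL6 array 3, IL2 array 2 (median 0.88) or IL2 array 3, and the 2 became 1 without each of these arrays and without TGFb with IL6 arrays 1 and 4. The cytokine genes Il17a and Il17f lie next to each other on mouse chromosome 1, and both rose. Their promoters are shown because the pair is the defining output of Th17 cells. Each line holds the 250 bases before the gene's start, taken from RefSeq on GRCm38.p6 and written along the gene's strand. Il17a lies at chr1:20730655-20730904 on the plus strand and Il17f at chr1:20784271-20784520 on the minus strand. Capitals mark AGGTCA, the core element bound by many nuclear receptors (both strands searched), and TATAAA, the TATA box (gene strand only).
Il17a: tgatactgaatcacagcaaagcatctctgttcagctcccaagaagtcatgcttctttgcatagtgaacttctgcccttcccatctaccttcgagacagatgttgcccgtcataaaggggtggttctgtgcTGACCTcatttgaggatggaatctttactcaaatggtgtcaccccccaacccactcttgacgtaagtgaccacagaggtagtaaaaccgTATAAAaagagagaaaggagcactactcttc
Il17f: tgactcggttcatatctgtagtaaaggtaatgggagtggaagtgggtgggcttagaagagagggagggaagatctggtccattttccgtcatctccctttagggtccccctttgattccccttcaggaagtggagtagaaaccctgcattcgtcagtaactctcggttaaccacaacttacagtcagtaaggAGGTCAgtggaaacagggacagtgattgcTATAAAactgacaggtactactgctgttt
The nuclear receptor element begins 120 bases before the start of Il17a, on the opposite strand, and 58 bases before the start of Il17f. AGGTCA occurs in 14% and TATAAA in 7.59% of all 32851 promoter windows of this length, so a match is common and is a description only. The STAT motif TTCNNNGAA, found in 7.02% of windows, had no match in these letters.

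Il17f, the gene of IL-17F, had log2 signals of 9.76, 9.87, 9.81 and 9.76 with TGFb and IL6 against 6.20, 6.45 and 6.27 with IL2 alone. The conditions were far apart and each was tight, and the probe was well above background on 4 of 4 arrays with TGFb and IL6 and 1 of 3 with IL2 alone. The log2 difference was 3.51 ± 0.12 (SE), or 11.4-fold (limma, adjusted p = 1.23e-14). Il17a, the gene of IL-17A, read 7.62, 7.36, 7.87 and 7.58 with TGFb and IL6 and 6.47, 6.59 and 6.74 with IL2 alone. These arrays did not overlap either, and the difference was smaller, at 1.04 ± 0.17 (adjusted p = 1.1e-04). The sizes, though not the calls, changed with the background correction: with the scanner program's own processed signals the difference was 6.05 for Il17f and 2.14 for Il17a.

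Ahr, the aryl hydrocarbon receptor that promotes IL-22 and IL-17 responses, rose as well. It read 10.17, 10.62, 9.97 and 10.73 with TGFb and IL6 against 6.66, 6.56 and 7.07 with IL2 alone (log2 difference 3.62 ± 0.19, limma adjusted p = 7.66e-12). Il21, an autocrine cytokine of Th17 and follicular helper cells, rose by 3.33 ± 0.36, and Il1r1, the receptor for IL-1, by 2.27 ± 0.13. Irf4, a transcription factor needed for Th17 development, rose by 1.04 ± 0.22 on 3 arrays with a usable spot. Ccl20, the chemokine that recruits CCR6-bearing cells, rose by 1.65 ± 0.46, but lost the call in 5 of 24 alternatives (adjusted p up to 0.144). The list did not move as a block. Csf2, the gene of GM-CSF, fell to 6.74, 6.81, 6.64 and 6.75 with TGFb and IL6, against 7.99, 7.98 and 8.04 with IL2 alone (log2 difference -1.25 ± 0.14, limma adjusted p = 1.73e-06). Batf, an AP-1 factor of Th17 cells, fell by 1.04 on the log2 scale, a call lost in 9 of 24 alternatives (adjusted p up to 0.139). Il22 differed by -0.54 ± 0.43 (adjusted p = 0.503) and Il23r by 0.09 ± 0.11 (adjusted p = 0.72), neither past the threshold.

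**Figure D2:**
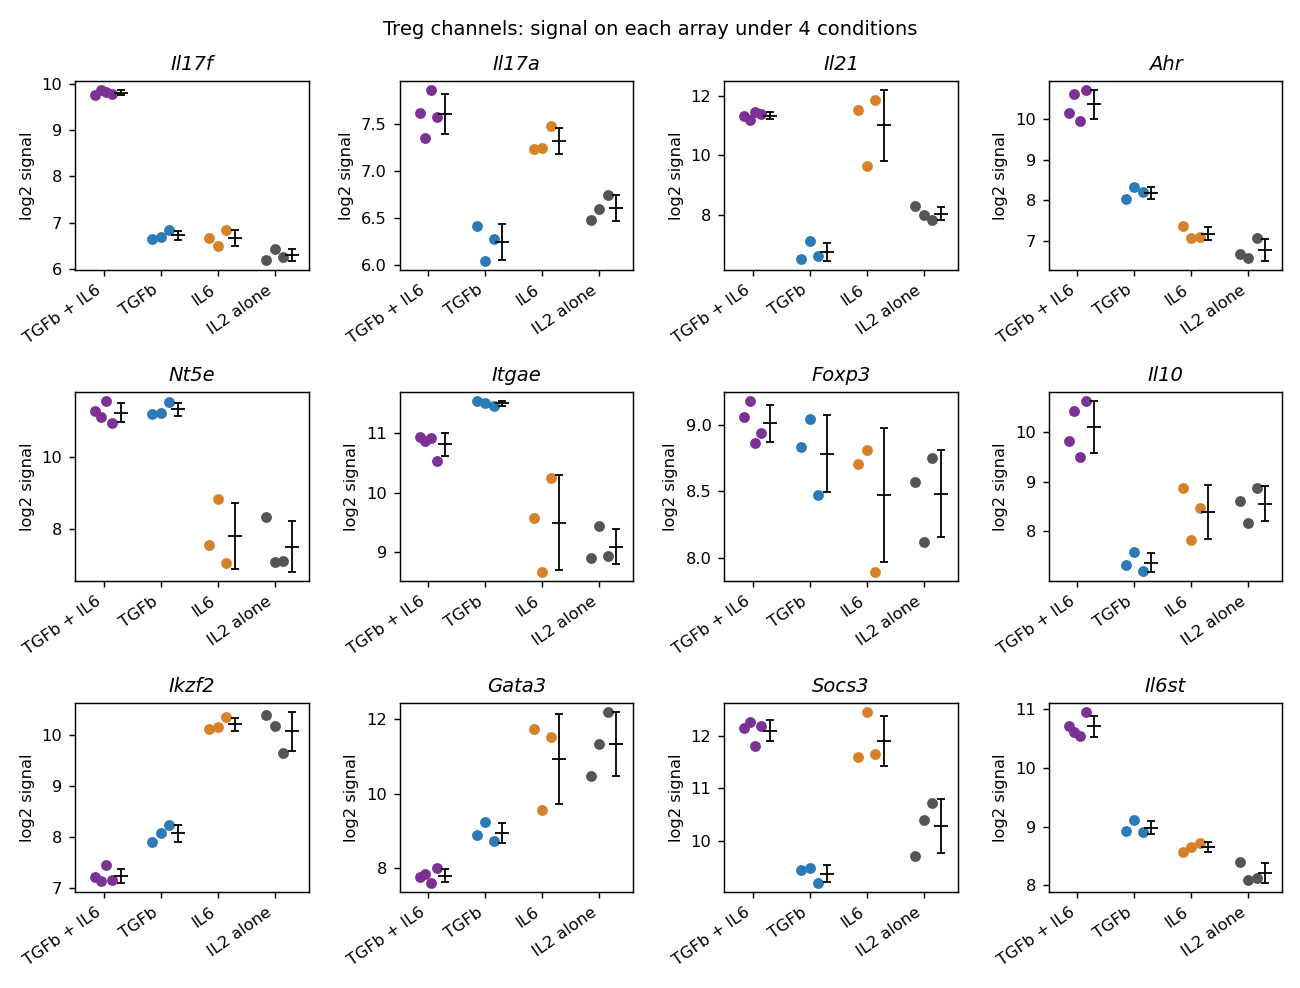
Normalized log2 signal in Treg channels for 12 genes (vertical axis, a separate scale for each gene), with 4 arrays for TGFb with IL6 and 3 each for TGFb, IL6 and IL2 alone. Points are arrays and bars are the mean ± SD; Il17f stands between 9.76 and 9.87 on the arrays with both cytokines and at or below 6.85 on all others.

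Treg core genes moved in both directions. Of 28 tested members 11 rose, 7 fell and 10 did not pass the test (64.3% called, against 13.6% of all genes). The median log2 difference was 0.23. Foxp3 was among the 10: the conditions did not overlap by array, but the difference of 0.49 ± 0.21 missed the threshold (limma, adjusted p = 0.146). Its adjusted p stayed between 0.0742 and 0.464 in the 24 alternatives. Ctla4, an inhibitory receptor of regulatory cells, read 9.66, 9.70, 9.66 and 9.82 with TGFb and IL6 and 9.53, 9.66 and 9.08 with IL2 alone. These overlapped, and the difference of 0.30 ± 0.15 was not past the threshold (adjusted p = 0.227).

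The member with the largest rise was Nt5e, which encodes CD73, the surface enzyme that makes adenosine from AMP. Its log2 signal was 11.28, 11.13, 11.57 and 10.95 with TGFb and IL6 against 8.33, 7.09 and 7.10 with IL2 alone. IL2 array 1 was the highest of its group, still below every array with both cytokines. The difference was 3.71 ± 0.35, or 13.1-fold (limma, adjusted p = 8.81e-08). A second, dimmer Nt5e probe, well above background on 3 of 7 arrays, rose by 0.81. The 250 bases before the start of Nt5e at chr9:88327359-88327608 (GRCm38.p6, RefSeq, plus strand) are shown because Nt5e is a TGFb-responsive gene, with the Smad box CAGACA (both strands searched) in capitals.
Nt5e: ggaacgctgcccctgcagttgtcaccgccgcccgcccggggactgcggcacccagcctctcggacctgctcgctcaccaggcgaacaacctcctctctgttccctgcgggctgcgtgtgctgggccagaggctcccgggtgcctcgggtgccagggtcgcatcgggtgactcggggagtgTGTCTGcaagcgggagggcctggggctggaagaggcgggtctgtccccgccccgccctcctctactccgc
The match begins 70 bases before the start, on the opposite strand, and the motif occurs in 17.1% of all promoter windows. Entpd1, or CD39, which acts one step earlier by turning ATP into AMP, was 7.91, 7.98, 7.70 and 7.93 with TGFb and IL6 and 6.78, 6.53 and 6.43 with IL2 alone, a rise of 1.30 ± 0.13 (adjusted p = 3.2e-07). Adk, the kinase that removes adenosine inside cells, fell by 1.09 on the log2 scale (adjusted p = 2.03e-08). Of 16 tested genes of adenosine and ATP handling, 7 rose and 1, Adk, fell (50% called, against 13.6% of all genes), with a median of 0.02. The 7 became 3 without TGFb with IL6 array 2 and 4 without its array 1 or IL2 array 3, and the median became 0.33 without IL2 array 2.

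Other Treg core genes also rose. Socs2, a feedback inhibitor induced by STAT5, was 13.42, 13.50, 13.08 and 13.54 with TGFb and IL6 and 11.06, 9.82 and 10.45 with IL2 alone (log2 difference 2.94 ± 0.30, limma adjusted p = 3.98e-07). A second Socs2 probe, well above background on 7 of 7 arrays, rose by 0.69 (limma, adjusted p = 9.7e-04). Itgae, the CD103 integrin chain that binds E-cadherin, was 10.93, 10.87, 10.91 and 10.53 against 8.91, 9.44 and 8.94 with IL2 alone, a rise of 1.74 ± 0.23 (adjusted p = 1.01e-05). Il10, the gene of an anti-inflammatory cytokine, was 9.82, 10.42, 9.5 and 10.62 with TGFb and IL6 and 8.61, 8.18 and 8.88 with IL2 alone, a rise of 1.52 ± 0.29 (adjusted p = 8.66e-04). None of these genes overlapped between the conditions. Capg, an actin-capping protein gene, rose by 1.71 ± 0.20, Gpr83 by 1.18 ± 0.18, the chemokine receptor gene Ccr8 by 1.05 ± 0.19 and Il2ra, the high-affinity IL2 receptor chain, by 0.96 ± 0.21. A pair of other Il2ra probes, well above background on 7 of 7 arrays, did not pass the test (1.07 and 0.48, adjusted p = 0.0558 and 0.103).

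The members that fell included Ikzf2, which encodes Helios, a transcription factor common in thymus-derived regulatory cells. It read 7.21, 7.13, 7.44 and 7.14 with TGFb and IL6 against 10.39, 10.16 and 9.64 with IL2 alone. No array with both cytokines came near those with IL2 alone, and the difference was -2.81 ± 0.20 (limma, adjusted p = 1.35e-09), 6.99-fold lower. Its 4 other probes, of which 3 were well above background on 3 of 7 arrays, differed by -1.84 to -0.87 on the log2 scale. Itgb8, the integrin chain that regulatory cells use to activate latent TGFb, was 6.95, 6.94, 6.72 and 7.08 with TGFb and IL6 and 9.33, 8.59 and 8.80 with IL2 alone (log2 difference -2.0 ± 0.28, adjusted p = 1.89e-05). Cd83, a surface activation molecule, fell to 6.73, 6.76, 6.74 and 6.70 with TGFb and IL6, against 9.96 to 10.23 on the arrays with IL2 alone (log2 difference -3.29 ± 0.20, adjusted p = 9.56e-11). Both genes separated the conditions on every array. Ebi3, a subunit of IL-27 and IL-35, fell by 2.14 on the log2 scale, and the TNF receptor family genes Tnfrsf9 (4-1BB) and Tnfrsf18 (GITR) also fell, with log2 differences of -2.13 and -0.82. Another Itgb8 probe, well above background on 3 of 7 arrays, also fell (-0.92, limma, adjusted p = 2.3e-04). The remaining Itgb8 probes (0.14 and -0.31) and a dimmer Tnfrsf9 probe (0.15) did not pass the test.

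TGFb response genes rose more often than they fell: 16 of 32 members rose and 3 fell (59.4% called, against 13.6% of all genes). Their median log2 difference was 0.32. The 3 became 0 without IL2 array 3 or slide B and 1 without IL2 array 2 or TGFb with IL6 array 4. Smad7, the inhibitory Smad that TGFb induces as feedback, was 9.12, 9.48, 9.16 and 9.94 with TGFb and IL6 and 7.12, 7.73 and 7.26 with IL2 alone (log2 difference 2.09 ± 0.20, limma adjusted p = 1.07e-07). Skil, the feedback repressor SnoN, was 11.04, 10.85, 10.96 and 11.01 against 9.13, 9.17 and 8.93 with IL2 alone, a rise of 1.91 ± 0.11 (adjusted p = 5.35e-11). Both were apart on all arrays, as was Ldlrad4, a membrane inhibitor of receptor-activated Smads, which rose by 3.09 ± 0.17. A dimmer Ldlrad4 probe, well above background on 4 of 7 arrays, rose by 1.22. The receptor gene Tgfbr1 rose by 1.82 ± 0.17 and Pmepa1, another inhibitor of Smad signalling, by 1.17 ± 0.19. A second Tgfbr1 probe, well above background on 3 of 7 arrays, differed by 0.29 (limma, adjusted p = 0.0657). Ctsw, the protease cathepsin W, was 13.11, 13.16, 12.95 and 12.98 with TGFb and IL6 and 9.45, 9.20 and 9.28 with IL2 alone, a rise of 3.73 ± 0.11 (adjusted p = 2.03e-15). Timp1, an inhibitor of matrix metalloproteinases, was 11.41, 11.34, 11.25 and 10.94 against 8.31, 8.70 and 7.99 with IL2 alone, a rise of 2.89 ± 0.14 (adjusted p = 3.46e-12). The conditions were again fully apart for both. Cdkn1a (p21) fell by 0.73 and Junb by 0.69 on the log2 scale, but each lost the call in 8 of 24 alternatives (adjusted p up to 0.129 and 0.178), and a second Junb probe, on 7 of 7 arrays, differed by -0.40 (adjusted p = 0.432). The list shares Nt5e and Itgae with the Treg core list and Timp1 with the IL6 list.

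IL6 and STAT3 response genes gave 8 members that rose and 3 that fell of 22 (50% called, against 13.6% of all genes). Their median was 0.28. The median was 0.10 without IL2 array 1 and 0.47 without IL2 array 2, where 1 member fell. Socs3, the STAT3-induced inhibitor of gp130 signalling, was 12.15, 12.27, 11.80 and 12.19 with TGFb and IL6 and 9.72, 10.41 and 10.72 with IL2 alone (log2 difference 1.80 ± 0.24, limma adjusted p = 1.17e-05). Il6st, which encodes gp130, was 10.71, 10.61, 10.54 and 10.95 against 8.40, 8.09 and 8.12 with IL2 alone, a rise of 2.49 ± 0.12 (adjusted p = 1.45e-12). Both sets of arrays were apart. The IL-21 receptor gene Il21r rose by 1.40 ± 0.14 and Cebpd by 1.22 ± 0.24. Stat3 itself, at 0.39 ± 0.14, did not pass the test (adjusted p = 0.0815). Gfi1, a zinc-finger repressor that opposes Th17 differentiation, fell to 9.25, 9.03, 9.08 and 9.20 with TGFb and IL6, against 10.96, 11.15 and 11.32 with IL2 alone (log2 difference -2.0 ± 0.22, adjusted p = 8.85e-07).

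**Figure D3:**
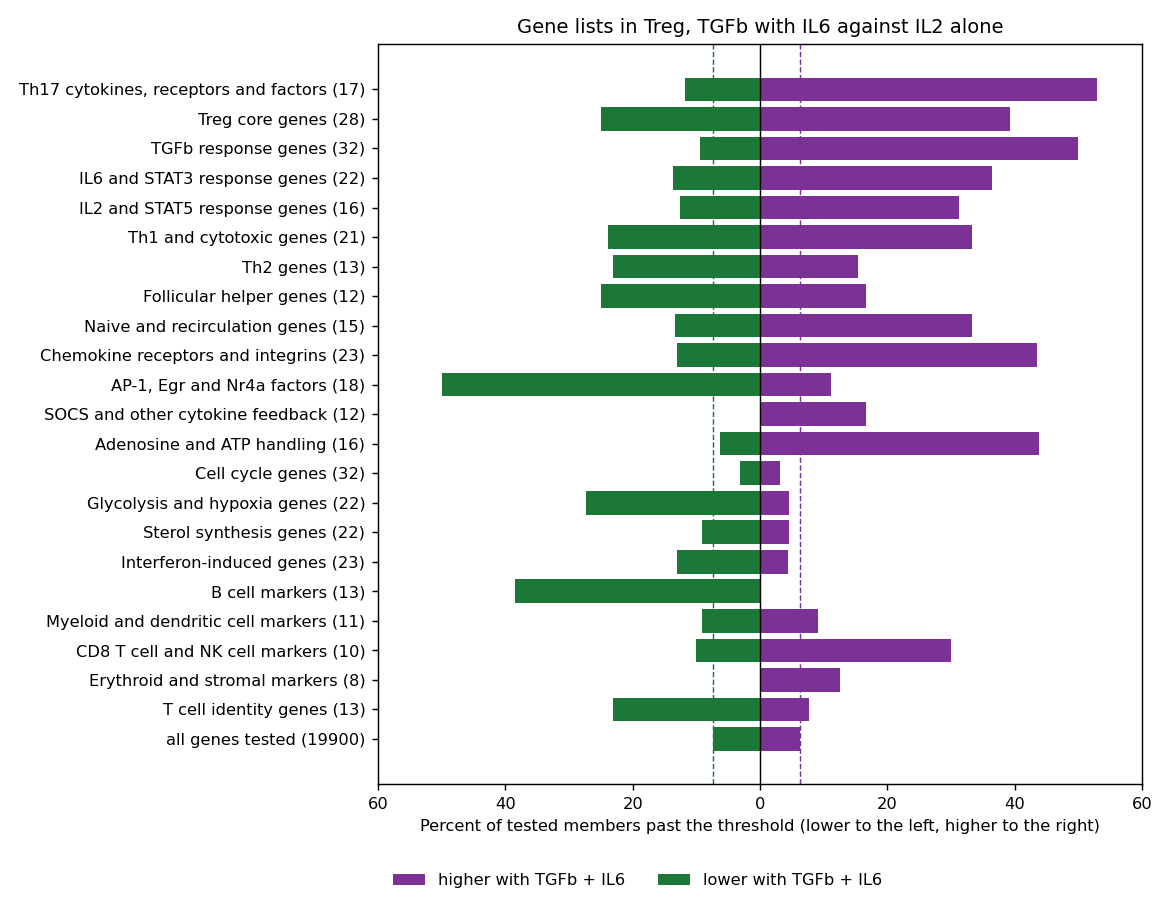
Percent of the tested members of each gene list (number tested in brackets) that rose (right) or fell (left) in Treg with TGFb and IL6 relative to IL2 alone. Dashed lines are the percentages over all 19900 genes, 6.25% higher and 7.39% lower; the Th17 list has 9 of 17 members higher and the AP-1, Egr and Nr4a list 9 of 18 lower.

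Gata3 and Tbx21, lineage factors of Th2 and Th1 cells, fell. Gata3, the master factor of Th2 cells, was 7.76, 7.85, 7.59 and 7.99 with TGFb and IL6 against 10.47, 11.34 and 12.19 with IL2 alone, without overlap (log2 difference -3.50 ± 0.44, limma adjusted p = 5.75e-06). Tbx21, which encodes T-bet of Th1 cells, was 9.80, 9.79, 9.97 and 10.06 with TGFb and IL6 and 10.19, 12.19 and 12.20 with IL2 alone. IL2 array 1 lay close to the arrays with both cytokines and the other IL2 arrays far above them. The difference was -1.53 ± 0.39 (adjusted p = 0.0087), and it lost the call in 4 of 24 alternatives (adjusted p up to 0.0708). Stat4, which carries the IL-12 signal, fell by 1.71 on the log2 scale (adjusted p = 9.75e-10), and Il4 by 1.53 (adjusted p = 0.0442), a call lost in 16 of 24 alternatives (adjusted p up to 0.187). Of 13 Th2 genes, 2 rose and 3 fell (38.5% called, against 13.6% of all genes, median -0.18).

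Effector genes of Th1 and cytotoxic cells were split, with 7 of 21 members higher and 5 lower (57.1% called, against 13.6% of all genes). Their median was 0.16. The 7 became 4 without IL2 array 2. Ccl5, the chemokine RANTES, fell to 7.92, 7.98, 7.84 and 7.83 with TGFb and IL6, against 10.16, 10.23 and 10.39 with IL2 alone (log2 difference -2.38 ± 0.18, limma adjusted p = 4.03e-09). Xcl1, the chemokine lymphotactin, moved the other way, with 11.57, 11.55, 11.56 and 11.35 against 9.5, 9.44 and 9.07 with IL2 alone (2.17 ± 0.20, adjusted p = 4.75e-08). Neither gene overlapped between the conditions. Prf1 (perforin) rose by 1.06 ± 0.20 and Cxcr3 by 1.40 ± 0.21, while Ifng differed by 0.76 ± 0.44, not past the threshold (adjusted p = 0.301). A second Ifng probe, well above background on 7 of 7 arrays, differed by 1.12 (adjusted p = 0.0432).

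Some markers of CD8 T cells and NK cells also changed. Of 10 tested members 3 rose, 1 fell and 6 did not pass the test (40% called, against 13.6% of all genes, median 0.10). The log2 of their summed signal was 12.52 to 12.66 with TGFb and IL6 and 12.07 to 12.57 with IL2 alone. Cd8a, which defines CD8 T cells, was 10.08, 10.21, 9.93 and 10.34 with TGFb and IL6 and 7.26, 7.88 and 8.81 with IL2 alone (log2 difference 2.16 ± 0.39, limma adjusted p = 3.98e-04), and the NK receptor genes Klrd1 (CD94) and Klrc1 (its partner NKG2A) rose by 3.06 ± 0.23 and 1.88 ± 0.19. All 3 genes were higher on every array with both cytokines. A dimmer Klrc1 probe, well above background on 3 of 7 arrays, rose by 0.69. Cd8b1, the other CD8 chain, read 10.75, 10.95, 10.58 and 10.51 with TGFb and IL6 and 9.83, 11.00 and 11.16 with IL2 alone, which overlapped (0.04 ± 0.35, adjusted p = 0.969). Crtam, an adhesion receptor of NK and CD8 T cells, fell by 1.68 on the log2 scale (adjusted p = 7.76e-05). Gzmk was well above background on 0 of 7 arrays. The part of these markers in the rise of Prf1, Xcl1 and Ctsw was not tested.

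Among B cell markers 0 of 13 rose, 5 fell and 8 did not pass the test (38.5% called, against 13.6% of all genes, median -0.34). Ighm, the brightest of them, differed by 0.15, Pou2af1 by -0.36 and Ms4a1 by -1.61, none past the threshold. The summed log2 signal of the list was 12.83 to 12.97 with TGFb and IL6 and 12.90 to 13.36 with IL2 alone. Cd79b, a chain of the B cell receptor, was 7.06, 6.80, 6.91 and 6.88 with TGFb and IL6 and 8.60, 9.39 and 9.38 with IL2 alone (log2 difference -2.17 ± 0.25, limma adjusted p = 1.68e-06). Blnk, an adaptor of B cell receptor signalling, fell by 2.45 on the log2 scale. Cd79b thus separated the conditions on every array. Its part in the fall of genes that B cells also express, such as Cd83, was not tested. Myeloid markers gave 1 higher and 1 lower of 11, or 18.2% called, against 13.6% of all genes. Their summed log2 signals were 10.42 to 10.76 with TGFb and IL6 and 10.29 to 10.66 with IL2 alone. Cd209a and Lyz2 were well above background on 0 of 7 arrays. Erythroid and stromal markers gave 1 higher and 0 lower of 8, or 12.5% called. Their sums were 9.68 to 9.94 with TGFb and IL6 and 9.67 to 10.03 with IL2 alone (Cdh5 and Dcn among those on 0 of 7 arrays). T cell identity genes gave 1 higher and 3 lower of 13, or 30.8% called. Their sums were 15.93 to 16.18 with TGFb and IL6 and 16.18 to 16.58 with IL2 alone. With 1 array left out at a time, the counts of T cell identity genes ran from 0 to 1 higher and 1 to 3 lower, and those of myeloid markers from 0 to 1 in each direction.

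Homing genes rose more often than they fell. Of 23 chemokine receptors and integrins, 10 rose and 3 fell (56.5% called, against 13.6% of all genes), with a median log2 difference of 0.31. Gpr15, a receptor that directs T cells to the large intestine, was 9.36, 8.48, 9.33 and 8.43 with TGFb and IL6 and 6.21, 6.41 and 6.41 with IL2 alone (2.58 ± 0.25, limma adjusted p = 1.45e-07). Within the arrays with both cytokines, arrays 1 and 3 (slides E and D) stood above arrays 2 and 4 (both slide B), and all were above IL2 alone. Cxcr6, the receptor for CXCL16, was 11.72, 11.71, 11.43 and 11.67 against 10.57, 9.43 and 9.49 with IL2 alone, a rise of 1.77 ± 0.18 (adjusted p = 2.64e-07). It was higher on all 4 arrays with both cytokines.

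Genes of naive and recirculating T cells gave 5 that rose and 2 that fell of 15 (46.7% called, against 13.6% of all genes, median 0.34). The 2 became 1 without TGFb with IL6 array 1, 3 or 4 and without IL2 array 2 or 3. S1pr1, the receptor that lets T cells leave lymph nodes, was 10.75, 11.13, 10.64 and 11.37 with TGFb and IL6 and 9.14, 7.76 and 7.85 with IL2 alone (log2 difference 2.69 ± 0.41, limma adjusted p = 6.8e-05). IL2 array 1 was again the highest of its group, and no arrays overlapped. Foxo1, a transcription factor that maintains naive T cell homing, rose by 1.41 ± 0.14. Igfbp4, which binds insulin-like growth factors, rose by 3.73 ± 0.21. A dimmer Igfbp4 probe, well above background on 5 of 7 arrays, rose by 2.25.

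Factors induced by T cell receptor signalling fell more often than they rose. Of 18 AP-1, Egr and Nr4a factors, 2 rose and 9 fell (61.1% called, against 13.6% of all genes), with a median of -0.49. Nr4a2, an orphan nuclear receptor, was 8.30, 8.55, 8.21 and 8.65 with TGFb and IL6 and 10.34, 10.32 and 9.99 with IL2 alone (log2 difference -1.79 ± 0.12, limma adjusted p = 6.96e-10). Egr2 fell by 1.32, Egr1 by 1.22 and Egr3 by 1.01 on the log2 scale. A dimmer Egr3 probe, well above background on 2 of 7 arrays, differed by -0.10 (limma, adjusted p = 0.663). Jun ran against the list, with 8.82, 8.80, 8.70 and 8.78 against 7.12, 7.10 and 7.16 with IL2 alone, a rise of 1.65 ± 0.10 (adjusted p = 1.68e-10). The count of factors that fell was 6 with the 7 or 13 Treg channels alone, with the replicate block, and without slide B, IL2 array 2 or TGFb with IL6 array 3 or 4. The median was -0.87 without IL2 array 1, where 1 factor rose, and -0.31 without IL2 array 3. Among follicular helper genes, 2 of 12 rose and 3 fell (41.7% called, median -0.50), or 1 and 2 without IL2 array 1 (median -0.32). Cd200, a surface glycoprotein, fell by 2.42 and Btla, an inhibitory receptor, by 1.63 on the log2 scale. Bcl6, the lineage factor of these cells, differed by -0.54 ± 0.49 (adjusted p = 0.563).

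Cell cycle genes changed in few members. Of 32 genes 1 rose and 1 fell, or 6.25% called, below the 13.6% of all genes, and Mki67, a marker of cycling cells, differed by -0.19 ± 0.14 (limma, adjusted p = 0.441). Glycolysis and hypoxia genes gave 1 higher and 6 lower of 22 (31.8% called) with a median of -0.49. Tpi1, a glycolytic isomerase, was 12.70, 12.81, 12.28 and 12.55 with TGFb and IL6 and 13.51, 13.72 and 13.92 with IL2 alone (log2 difference -1.15 ± 0.18, adjusted p = 1.1e-04). Ankrd37, a target of hypoxia-inducible factor, fell by 1.20 on the log2 scale, while Egln3, a prolyl hydroxylase of that pathway, rose by 1.98 ± 0.30. The 6 became 14 with slide as a block, 12 without IL2 array 1 (median -0.81) and 3 without IL2 array 3 (median -0.33). Of 22 sterol synthesis genes 1 rose and 2 fell, or 13.6% called, the same share as over all genes (median -0.02). The 2 became 4 without IL2 array 1 and 1 without IL2 array 3. Pmvk, a kinase of the mevalonate pathway, fell by 1.15 on the log2 scale.

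The largest changes lay mostly outside these lists. Serpinb5 (maspin), a serpin studied in epithelial cells, was 12.20, 12.44, 11.91 and 12.11 with TGFb and IL6 and not well above background on any array with IL2 alone (5.95, 6.10 and 6.22). That is at least 64.6-fold higher, and the fitted log2 difference was 6.07 ± 0.30 (limma, adjusted p = 4.41e-12). Serpinb1a, an inhibitor of neutrophil serine proteases, was 12.38, 12.47, 12.24 and 12.28 against 6.91, 6.69 and 6.88 with IL2 alone (5.51 ± 0.18, adjusted p = 5.43e-15). Both serpins were far apart on every array, though absence of overlap was part of the rule that named the largest rises. With the scanner program's processed signals the difference was 9.69 for Serpinb5 and 8.18 for Lhx6, described next. Aqp3, a water and glycerol channel, rose by 4.84 ± 0.28, Sgk1, a kinase that promotes Th17 responses downstream of salt sensing, by 4.28 ± 0.30, and Lhx6, a LIM homeobox gene, by 4.21 ± 0.17. The Lhx6 probe was well above background on 5 of 7 arrays, and a second one, so on 3 of 7, differed by 0.15 (adjusted p = 0.448). Ctla2b, which resembles a cysteine protease propeptide and has the near copy Ctla2a, rose by 3.93 ± 0.29, the membrane protein gene Emp1 by 3.80 ± 0.33 and Fnbp1l by 3.78 ± 0.16. A dimmer Fnbp1l probe, well above background on 4 of 7 arrays, rose by 1.14. An immunoglobulin heavy variable probe named Igh-VJ558 in the files was 11.12, 11.16, 10.79 and 10.95 with TGFb and IL6 and 6.20, 8.88 and 6.11 with IL2 alone. Its 8 probes disagreed: 3 rose by 2.65 to 3.94 and the other 5 differed by -0.74 to -0.10.

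Penk, which encodes the opioid precursor proenkephalin, fell furthest, to 7.83, 8.08, 7.51 and 8.16 with TGFb and IL6, against 12.94, 12.73 and 13.49 with IL2 alone. This is 35.7-fold lower, a log2 difference of -5.16 ± 0.20 (limma, adjusted p = 7.68e-14). A second, dimmer Penk probe, well above background on 3 of 7 arrays, differed by -2.54. Edn1 (endothelin 1) was not well above background on any array with TGFb and IL6 (5.87, 6.13, 5.93 and 6.02), against 9.76, 9.48 and 10.40 with IL2 alone, at least 13.6-fold lower. Cavin3, a caveola protein gene, was likewise not well above background with both cytokines and at least 12.5-fold lower. Shtn1 (shootin 1), Nrn1 (neuritin) and Rnd3, a small GTPase gene, also fell, with log2 differences of -4.08, -3.97 and -3.43. The receptor gene Calcrl fell by 3.26 and the myosin heavy chain gene Myh7 by 3.16. Dimmer probes of these genes fell less. Their log2 differences were -0.47 for Shtn1, -2.06 and -1.23 for Rnd3, -1.01 for Calcrl and -2.94 for Myh7. Absence of overlap between the conditions was part of the rule that named the largest falls, so it is no separate result for these genes.

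Each cytokine alone gives context for these values. TGFb alone called 7.74% and IL6 alone 0.945% of genes in Treg against the same IL2 arrays. The comparisons share those arrays, so each is given by its own values, and the direct differences from TGFb alone and from IL6 alone are tests in the same fit, which called 5.6% of genes between both cytokines and TGFb alone and 10.1% between both and IL6 alone. Some genes were higher with both cytokines than with either alone. Il17f differed from IL2 by 0.45 ± 0.13 with TGFb and by 0.40 ± 0.13 with IL6, and TGFb with IL6 exceeded TGFb alone by 3.06 ± 0.12 (limma, adjusted p = 2.58e-13) and IL6 alone by 3.11 ± 0.12 (adjusted p = 1.85e-13). Timp1 differed by -0.04 ± 0.15 with TGFb and 0.44 ± 0.15 with IL6, and the joint condition exceeded them by 2.93 ± 0.14 and 2.45 ± 0.14. For Serpinb5 the single differences were -0.12 ± 0.32 with TGFb and 1.75 ± 0.32 with IL6, and for Ahr 1.44 ± 0.20 and 0.43 ± 0.20. The joint condition exceeded each cytokine alone in both genes (adjusted p from 7.7e-12 to 7.76e-08). The Serpinb5 probe was not well above background on any Treg array with TGFb or with IL2 alone, so its -0.12 compares readings near background.

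A second set followed TGFb. Nt5e differed from IL2 by 3.80 ± 0.37 with TGFb and 0.29 ± 0.37 with IL6, and the joint condition differed from TGFb alone by -0.08 ± 0.35 (limma, adjusted p = 0.961). Skil differed by 1.68 ± 0.12 and 0.03 ± 0.12, and Tgfbr1 by 1.79 ± 0.19 and 0.23 ± 0.19, with no difference past the threshold between the joint condition and TGFb alone. Ikzf2 differed by -1.94 ± 0.22 with TGFb and 0.20 ± 0.22 with IL6, and with both cytokines differed from TGFb alone by -0.87 ± 0.20 (adjusted p = 0.00949). Ccl5 and Itgb8 also fell with TGFb, with log2 differences of -2.39 and -2.02, and differed by 0.00 and 0.02 between both cytokines and TGFb alone.

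Another set followed IL6 and ran against TGFb alone. Socs3 differed from IL2 by -0.94 ± 0.26 with TGFb and 1.58 ± 0.26 with IL6, and the joint condition exceeded TGFb alone by 2.74 ± 0.24 (limma, adjusted p = 9.14e-08) and differed from IL6 alone by 0.22 ± 0.24. For Il21 the single differences were -1.21 ± 0.38 with TGFb and 3.04 ± 0.38 with IL6. Il10 fitted neither: it differed by -1.20 ± 0.32 with TGFb and -0.18 ± 0.32 with IL6, yet the joint condition exceeded TGFb alone by 2.73 ± 0.29 (adjusted p = 1.99e-06) and IL6 alone by 1.71 ± 0.29 (adjusted p = 3.86e-04). Penk with both cytokines differed from TGFb alone by -2.17 and from IL6 alone by -2.98 on the log2 scale.

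**Figure D4:**
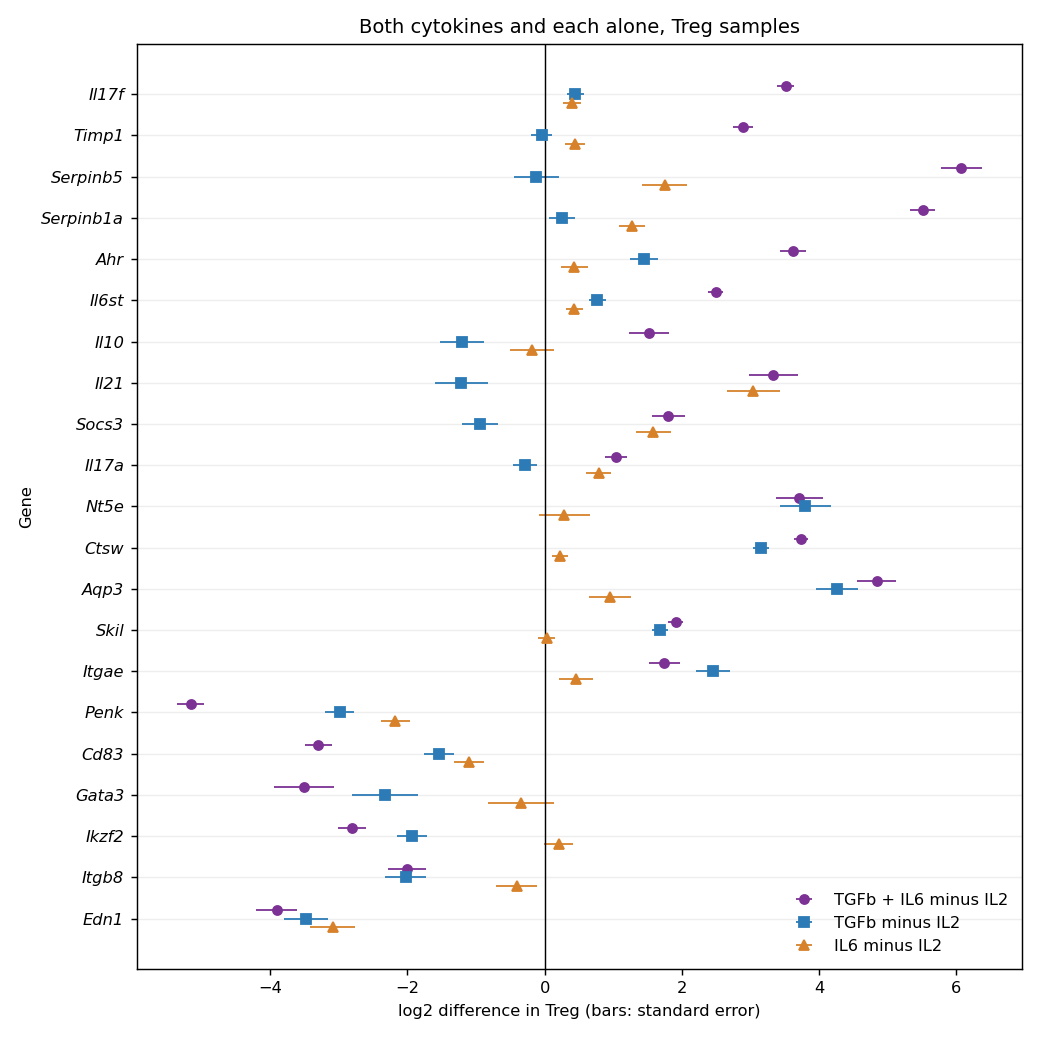
Log2 differences from IL2 alone in Treg for 21 genes, with TGFb and IL6 together (circles), TGFb (squares) and IL6 (triangles); bars are standard errors, and all share the same 3 IL2 arrays. Il17f stands at 3.51 with both and at 0.45 and 0.40 with each alone, Nt5e at 3.71, 3.80 and 0.29, and Socs3 at 1.80, -0.94 and 1.58.

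The same comparison in the T-effector channels called 17.4% of genes. Of the genes called in Treg, 1540 were also called in T-effector samples, 1482 of them in the same direction. Both effects come from opposite dyes of the same arrays and slides, so this agreement is not independent. The difference between the effects was itself past the threshold for 12.8% of all genes. Ikzf2 fell in Treg, but in T-effector samples it read 6.99, 6.79, 6.67 and 6.78 with TGFb and IL6 and 6.97, 6.61 and 6.74 with IL2 alone, a difference of 0.01 ± 0.20. The effects differed by -2.81 ± 0.21 (limma, adjusted p = 7.06e-08). The Treg arrays with both cytokines thus lay just above the T-effector arrays. For Itgb8 the effects differed by -2.23 ± 0.29 (adjusted p = 5.87e-05). Il6st rose in both, by 2.49 ± 0.12 in Treg and 1.38 ± 0.12 in T-effector samples (difference 1.11 ± 0.12, adjusted p = 8.22e-06). Il21r rose by 1.40 ± 0.14 in Treg and differed by 0.34 ± 0.14, not past the threshold, in T-effector samples (difference 1.06 ± 0.15, adjusted p = 1.26e-04). Prf1 rose in Treg and fell by 1.15 on the log2 scale in T-effector samples (difference 2.21 ± 0.22, adjusted p = 1.97e-06), and Xcl1 differed by 0.13 ± 0.20 there (difference 2.05 ± 0.21, adjusted p = 2.57e-06). Cd8a moved with them, at 0.12 ± 0.39 in T-effector samples (difference 2.04 ± 0.41, adjusted p = 0.0025). Il17f rose slightly less in Treg than in T-effector samples (difference -0.49 ± 0.13, adjusted p = 0.0135). For Nt5e the difference of -0.28 ± 0.37 was not past the threshold.

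**Figure D5:**
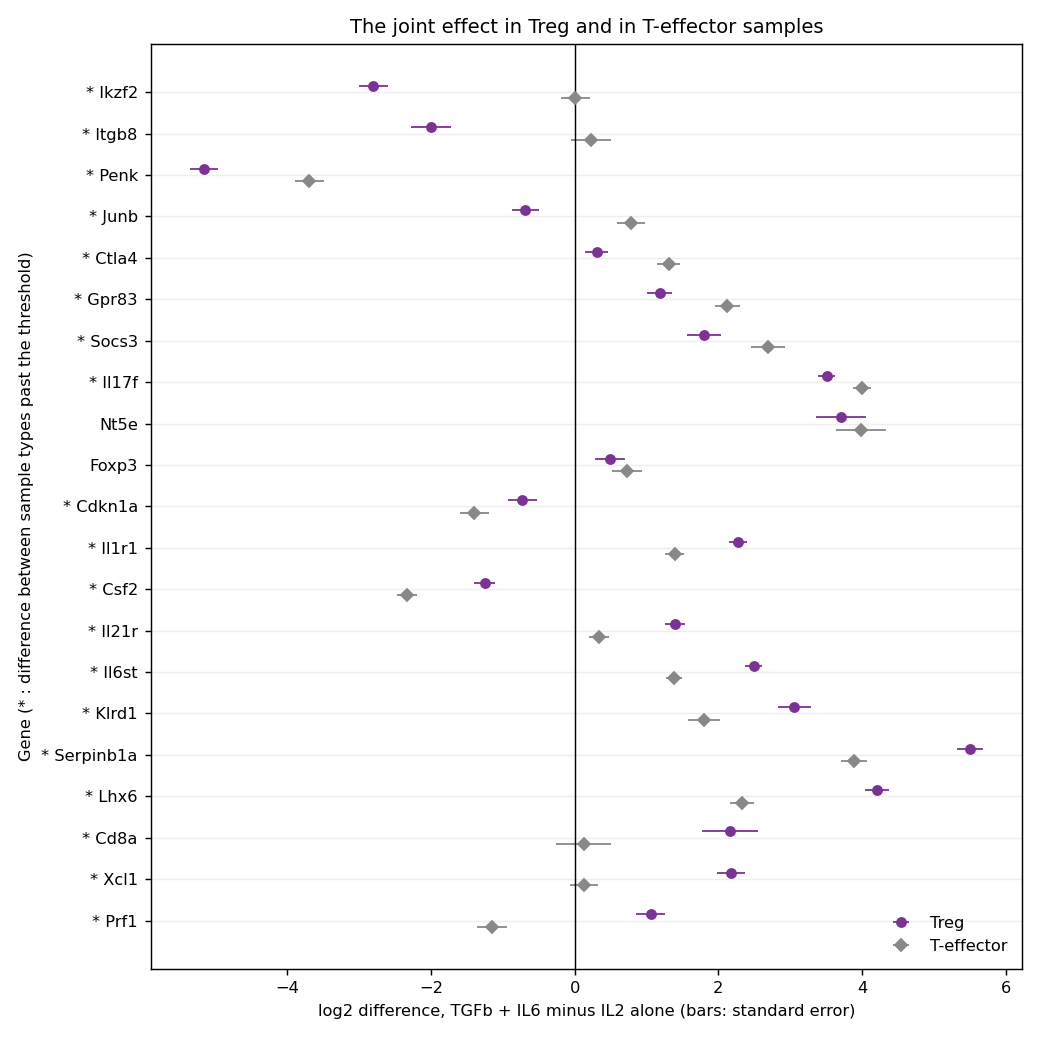
Log2 difference, TGFb with IL6 minus IL2 alone, in Treg (circles) and T-effector (diamonds) samples for 21 genes; bars are standard errors and stars mark genes whose effects differ between the sample types past the threshold. Ikzf2 stands at -2.81 in Treg and 0.01 in T-effector samples, and Xcl1 at 2.17 and 0.13.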

How the data were processed

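Each of 13 two-colour arrays carried Treg RNA in 1 dye and T-effector RNA in the other. Per the file headers, the deposited spot values are scanner intensities made with Agilent Feature Extraction, version 9.5.1.1 per the submitters' processing notes. The deposited log10 ratio, the deposited processed intensities (used as an alternative only) and the log2 values of the authors' value table (not used here) come from the same arrays. Mean signals were corrected with normexp (offset 50, with spots of deviant local background kept out of its parameters), normalized by loess within and Aquantile between arrays, and averaged per probe, using limma 3.58.1 in R 4.3.3. A probe was kept if 3 or more of the 26 channels had it well above background and at most 3 arrays lacked it, which held for 28923 of 41174, and the brightest probe of each gene was tested, 19900 genes in all, 135 of them with a missing array. Names came from accessions (23082 probes), the files (8437), symbols (6582) and synonyms (3073) in the reference table.

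A separate-channel fit with 8 means of condition by sample type and a dye term gave limma's moderated tests (intraspot correlation 0.4517, 17 residual degrees of freedom, Benjamini-Hochberg over all genes, threshold 0.05). It was tested on simulated data. Array numbers are those of the labels. Deviations of TGFb with IL6 and IL2 arrays of the same number correlated at -0.16, -0.28 and -0.70. All of these pairs lay on different slides, so the correlations cannot tell whether equal numbers share a culture or animal. The fit did not pair the arrays. Where no array of a condition had a probe well above background, the fold is given as a bound. A fitted log2 difference printed or plotted for such a gene rests on readings near background in that condition. The small number of arrays limits precision. The samples, the 22 gene lists and the named genes were chosen with earlier results of these data known. The rule for names was 14 anchor genes, the called members of each list that moved most (4 at most), and the 10 called genes without overlap that moved most in each direction. Outside it, Irf4, Ccl20, Batf, Csf2, Il22, Il23r, Capg, Gpr83, Ebi3, Tnfrsf18, Ccr8, Skil, Pmepa1, Tgfbr1, Junb, Il21r, Cebpd, Stat3, Prf1, Ifng, Cxcr3, Cd8b1, Bcl6, Egr3, Mki67, Ddx3y and Xist were named after their values were seen. Ighm, Pou2af1 and Ms4a1 were also named in this way and are outside the counts of named genes below.

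Some genes are not reported here. Lists that the text does not describe were 16 IL2 and STAT5 response genes (5 higher, 2 lower, 43.8% called), 12 genes of SOCS and cytokine feedback (2 higher, 0 lower, 16.7% called) and 23 interferon-induced genes (1 higher, 3 lower, 17.4% called). Over all genes 13.6% were called.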

Additional observations from a re-analysis of the deposited data

Results flagged for a closer look

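The joint effect of TGFb and IL6 differed between Treg and T-effector samples for 35 of the 97 named genes. This is by the test of the difference itself (limma, adjusted p under 0.05), which called 12.8% of all genes. Many of the named genes were chosen for a large Treg effect, which is part of this difference, so these shares are not alike. The calls of the 35 genes under other processing are not given. Signed values are the Treg effect minus the T-effector effect on the log2 scale.

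Values above 0 were found for Prf1 (2.21), Xcl1 (2.05), Cd8a (2.04), Lhx6 (1.88), Serpinb5 (1.78), Serpinb1a (1.62), Igh-VJ558 (1.38), Klrd1 (1.26), Il6st (1.11), Csf2 (1.08), Il21r (1.06), Irf4 (0.98), Cd79b (0.96), Il1r1 (0.88), Klrc1 (0.82), Cdkn1a (0.67), Ldlrad4 (0.66), Ctsw (0.63) and Stat4 (0.63). For Csf2, Cd79b, Cdkn1a and Stat4, which fell in both sample types, a positive value means a smaller fall in Treg. Values below 0 were found for Ikzf2 (-2.81), Itgb8 (-2.23), Ccl20 (-1.89), Junb (-1.47), Penk (-1.47), Aqp3 (-1.08), Ctla4 (-1.0), Shtn1 (-1.0), Gpr83 (-0.94), Egr1 (-0.90), Socs3 (-0.89), Ebi3 (-0.75), Tnfrsf18 (-0.53), Tnfrsf9 (-0.52), Il17f (-0.49) and Cd200 (-0.47).

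On the 4 Treg arrays with TGFb and IL6, 1 array lay apart from the rest in 5 genes, measured by its gap to the nearest other array as a share of the range. The shares were 0.913 for Xcl1, 0.885 for Ebi3, 0.882 for Stat4, 0.858 for Ctla2b and 0.841 for Itgae. Chance alone gives such a gap in about 1 in 20 groups. The ranges were narrow beside the differences between the conditions, for example 10.53 on array 4 against 10.87 to 10.93 on the other arrays for Itgae.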

How the results depend on the processing

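The count of 2715 genes called in Treg stayed within 1.5 times under the alternatives, from 2044 to 3936, except with the fit limited to the 7 Treg channels (1560). Leaving out 1 array gave 2044 (without IL2 array 2) to 2490. The replicate block gave 2398 genes, although it is not known whether the numbers pair the arrays. The count of 2552 genes whose effect differed between Treg and T-effector samples was less stable. It was 1580 with no dye term, 5198 with the scanner program's processed signals, 808 with normexp parameters fitted on all spots, 5559 with the spatial trend removed, 1596 with the replicate block and 1281 without slide B. Without 1 array it ran from 1259 (without IL2 array 2) to 2418, with 1420 without TGFb with IL6 array 1 and 1430 without its array 3. The cause of these shifts was not tested. Of 86 named genes that passed the test, 80 passed in every alternative run and 6 (Il4, Batf, Cdkn1a, Junb, Ccl20 and Tbx21) lost the call in some. Of the 11 that did not pass, 3 (Ctla4, Ifng and Stat3) passed in some, and 0 of the 97 changed direction past the threshold. The value moved by over 1.5 times for 15 of the 86 with the scanner program's processed signals and for 3 with no normexp offset. Probes near background limit fold sizes. The arrays of the conditions share only slide D, so they can be compared directly within a slide only there. The fit with slide as a block, in which other conditions also link the slides, called 3481 genes.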
